A study of Mus musculus with 69 samples.

Results

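The 8 genes described here take iron into cells, store it or release it. They are Slc40a1, Tfrc, Fth1, Ftl1, Slc11a1, Trf, Steap4 and Hamp, chosen by name and with earlier results of these data known. Counts of called members beside the share of all genes are therefore a description and not a test of the group. Every array probe whose transcript accession belonged to one of these symbols was used, and the value of a gene is the median over its probes. All 8 of 8 genes were found and passed the filter on dim probes, among 17628 genes tested in all. Steap4 had 2 probes and the other genes had 1 each.

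Expression was measured in whole lung RNA of 69 female C57BL/6 mice, 1 mouse per 2-colour array, against a common mouse reference RNA. A single intratracheal instillation delivered either vehicle or nanosized titanium dioxide. The titanium dioxide came in an unmodified form without charge, named NRCWE-001, and in a form whose surface had been modified to be positively charged, named NRCWE-002. Doses were 18, 54 and 162 µg of either particle, and lungs were taken on day 1 or day 28. Each of the 14 groups held 5 mice, except for the vehicle mice of day 28, of which there were 4. The mice were young adults with no genetic change. The vehicle was serum diluted in water per the series design, while sample titles call it H2O. The lung label held on every array: Sftpc, Scgb1a1, Ager and the 7 other listed markers of lung epithelium and endothelium were well above background on all 69 arrays.

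Iron travels in blood bound to transferrin, the product of Trf. Cells bind that complex with the transferrin receptor, Tfrc, take it in and release the iron in an acid vesicle, where a metalloreductase of the Steap family turns ferric into ferrous iron. Surplus iron is oxidised and stored in a shell of ferritin heavy (Fth1) and light (Ftl1) chains. Slc11a1 moves metal ions out of the phagosome of macrophages and neutrophils. Slc40a1, ferroportin, is the exporter, and hepcidin, the product of Hamp, is the peptide that removes ferroportin from the cell surface. In the lung, macrophages and epithelial cells handle inhaled iron, and inflammation is known to move iron from the airspace into ferritin.

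The sequence just before the start of a gene is shown for 4 of the genes: Fth1 and Steap4, whose levels rose, and Ftl1 and Hamp, which were not called. The RefSeq table of build GRCm38.p6 held windows for 6 of the 8 genes, and Slc40a1 and Trf are named only. Each window is the 250 bases before an annotated start, written 5′ to 3′ on the strand of the gene. In the first pair, capitals mark TTCNNNGAA, the letters that transcription factors of the STAT family are known to bind, searched on both strands.
Steap4, chr5:7960222-7960471, plus strand: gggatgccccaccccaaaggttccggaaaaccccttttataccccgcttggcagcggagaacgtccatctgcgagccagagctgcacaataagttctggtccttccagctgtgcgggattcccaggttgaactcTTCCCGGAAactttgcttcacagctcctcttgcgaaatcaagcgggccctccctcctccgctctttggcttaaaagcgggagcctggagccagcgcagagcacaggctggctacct
Hamp, chr7:30944030-30944279, minus strand: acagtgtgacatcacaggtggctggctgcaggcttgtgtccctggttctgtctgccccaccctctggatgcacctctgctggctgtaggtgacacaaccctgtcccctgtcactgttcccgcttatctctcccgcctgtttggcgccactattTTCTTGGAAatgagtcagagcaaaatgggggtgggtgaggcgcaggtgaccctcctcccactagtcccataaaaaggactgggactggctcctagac

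The match began 116 bases before the start of Steap4 and 97 bases before that of Hamp, and these were the only members of the 6 with the letters in a window. Of 32851 windows of the same length in the table, 7.02% held them. In the ferritin pair, capitals mark the GC box, GGGCGG on either strand.
Fth1, chr19:9982396-9982645, plus strand: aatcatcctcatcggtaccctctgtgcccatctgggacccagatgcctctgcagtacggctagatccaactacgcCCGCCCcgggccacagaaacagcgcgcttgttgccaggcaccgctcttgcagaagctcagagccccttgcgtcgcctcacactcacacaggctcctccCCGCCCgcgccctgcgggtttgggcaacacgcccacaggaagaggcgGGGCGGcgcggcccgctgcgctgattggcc
Ftl1, chr7:45459887-45460136, minus strand: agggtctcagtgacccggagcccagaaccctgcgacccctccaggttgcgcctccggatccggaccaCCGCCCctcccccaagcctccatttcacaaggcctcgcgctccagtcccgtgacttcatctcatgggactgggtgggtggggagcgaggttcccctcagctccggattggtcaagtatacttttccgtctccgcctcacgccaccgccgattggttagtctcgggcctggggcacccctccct

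This Fth1 window held 3 GC boxes and that of Ftl1 held 1, against 32.7% of all windows with any. The table lists a further start of Fth1, whose window held 0. Of the windows not shown, 1 of Tfrc held 1 GC box. The core of the antioxidant response element, TGACNNNGC, was in 10.2% of all windows and in 0 of those of the 6 genes. A match is a run of letters and not a shown binding site.

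Before the results, the arrays were compared. The median correlation of an array with the others across genes ran from 0.852 to 0.973, and lay below 0.9 on 4 arrays. Of these, 3 were on slide 4, which held only NRCWE-002 mice of day 28 (replicate 2 at 18, 54 and 162 µg), and 1 was replicate 2 of NRCWE-001 at 18 µg on day 1. Between 61.4% and 87.8% of the spots of an array were well above background in the sample channel. After group means were removed, the slide took 81.8% of the remaining variance of Ftl1, 72.5% for Slc40a1, 69.0% for Trf, 64.7% for Slc11a1, 53.6% for Tfrc, 40.7% for Steap4, 29.9% for Fth1 and 29.6% for Hamp. The 18 slides of up to 4 arrays would take a part of any variance. The share expected without a slide effect was not computed, so the lowest shares, those of Fth1 and Hamp, need not reflect one. Results are therefore also given with slide as a fixed block where that changed a call. Values are log2 ratios of lung to reference RNA, so the level of one gene cannot be set against that of another.

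Each comparison was tested with limma in 1 fit of all groups, and a gene was called where its p, adjusted over all 17628 genes by the Benjamini-Hochberg method, was below 0.05. On day 1 the ferritin heavy chain and the metalloreductase Steap4 rose at 162 µg of either particle, by 0.50 to 0.63 on the log2 scale. These 2 of 8 genes were called at an adjusted p below 0.05 for NRCWE-001, where 0.562% of all genes were called and 0.425% were called higher. The same 2 of 8 were called for NRCWE-002, against 0.59% of all genes called and 0.477% called higher. No member was called lower. All 8 genes had a positive log2 change with both particles, with medians of 0.49 (NRCWE-001) and 0.40 (NRCWE-002), beside 0.0069 and 0.012 over all genes. Both comparisons use the same 5 vehicle mice, so they are not independent of each other. In lung tissue, a change in the number of cells that express a gene and a change of its RNA per cell cannot be told apart.

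**Figure D1:**
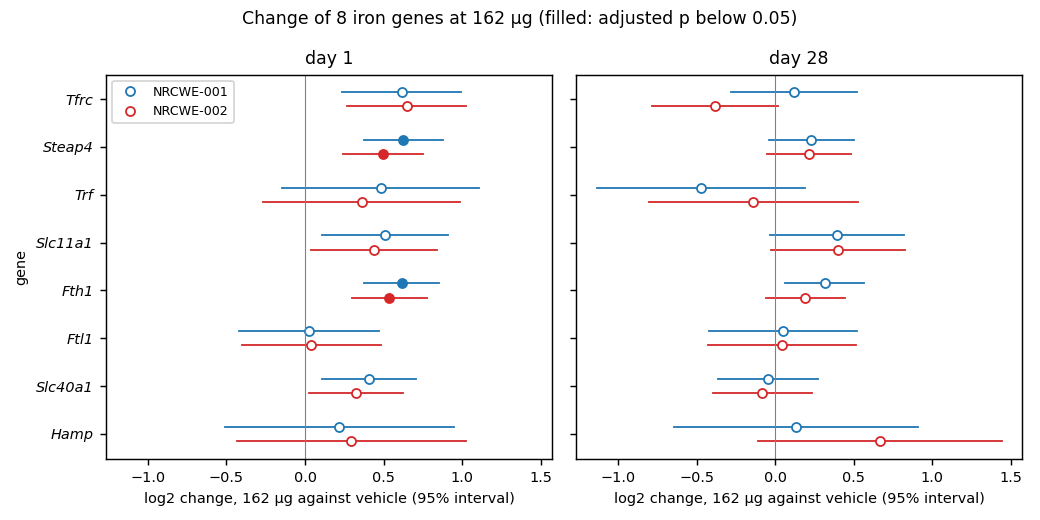
Log2 change of the 8 iron genes at 162 µg against vehicle mice of the same day, with 95% intervals of the limma fit (x axis), for NRCWE-001 in blue and NRCWE-002 in red; filled points were called at an adjusted p below 0.05. On day 1 all 16 points lie above 0 and those of Fth1 and Steap4 are filled, while on day 28 no point is filled.

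Fth1, which carries the ferroxidase activity of ferritin, had log2 ratios of -0.24, -0.10, 0.00055, 0.016 and 0.16 in the vehicle mice of day 1. At 162 µg of NRCWE-001 they were 0.11, 0.40, 0.71, 0.74 and 0.94. With NRCWE-002 at that dose they were 0.26, 0.39, 0.53, 0.63 and 0.70. All 5 NRCWE-002 mice and 4 of the 5 NRCWE-001 mice lay above every vehicle mouse. The log2 change was 0.62 ± 0.12 (SE) for NRCWE-001 (limma, adjusted p = 0.0041), a 1.53-fold level, and 0.54 ± 0.12 for NRCWE-002 (adjusted p = 0.0157), a 1.45-fold level. The probe was bright, with signals from 88144 to 231034 and no saturated spot, and Fth1 has near-identical pseudogene copies in the genome that could share the probe.

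The Fth1 means of day 1 stood in the order of the doses with both particles. The mean log2 ratio on day 1 was -0.033 ± 0.15 (SD, n = 5) in vehicle mice and 0.0086 ± 0.23, 0.18 ± 0.32 and 0.58 ± 0.33 at 18, 54 and 162 µg of NRCWE-001. For NRCWE-002 the means were 0.011 ± 0.14, 0.40 ± 0.18 and 0.50 ± 0.18. At 54 µg all 5 NRCWE-002 mice, at 0.18, 0.34, 0.37, 0.44 and 0.66, lay above the vehicle mice, with a change of 0.43 ± 0.12 that was not called (adjusted p = 0.213). The F-test over the 3 doses called Fth1 for NRCWE-001 (adjusted p = 0.00624) and NRCWE-002 (adjusted p = 0.00847), where it called 0.686% and 0.817% of all genes. Steap4 was the other member called in both F-tests. With slide as a block the F-test called 4 of 8 for NRCWE-001, namely Slc40a1, Tfrc, Fth1 and Steap4, where 7.39% of all genes were called. For NRCWE-002 it called 3 of 8, Slc40a1, Tfrc and Fth1, where 2.41% of all genes were called.

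Steap4, which reduces iron and copper and is known to rise in inflamed tissue, stood at 0.13, 0.21, 0.25, 0.25 and 0.27 in vehicle mice on day 1. At 162 µg it was 0.31, 0.74, 0.88, 1.04 and 1.27 with NRCWE-001 and 0.23, 0.71, 0.79, 0.91 and 0.95 with NRCWE-002. The NRCWE-001 mice were all above the vehicle mice, and 1 NRCWE-002 mouse, replicate 5, lay among them. The log2 change was 0.63 ± 0.13 (adjusted p = 0.00658) and 0.50 ± 0.13 (adjusted p = 0.0427). The F-test called Steap4 for NRCWE-001 (adjusted p = 0.00428) and, near the threshold, for NRCWE-002 (adjusted p = 0.0434). The slide block ended the F-test call for NRCWE-002 (adjusted p = 0.0534).

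The Steap4 probes were dim, and the size of its change depended on how background was handled. Sample signals ran from 67 to 265 over a local background near 66, and the brighter probe was well above background on 61 of 69 arrays and the dimmer on 30. In the reference channel the brighter probe was well above background on only 3 arrays and the dimmer on 7. The reference part of the Steap4 ratios was therefore near background on most arrays. At 162 µg of NRCWE-001 the log2 change was 0.91 on the brighter probe and 0.34 on the dimmer. With the processed signals of the scanner software the changes of the NRCWE-001 and NRCWE-002 mice were 2.69 and 2.05, and in the deposited log2 ratios they were 0.85 and 0.70. The direction was the same in all of these.

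**Figure D2:**
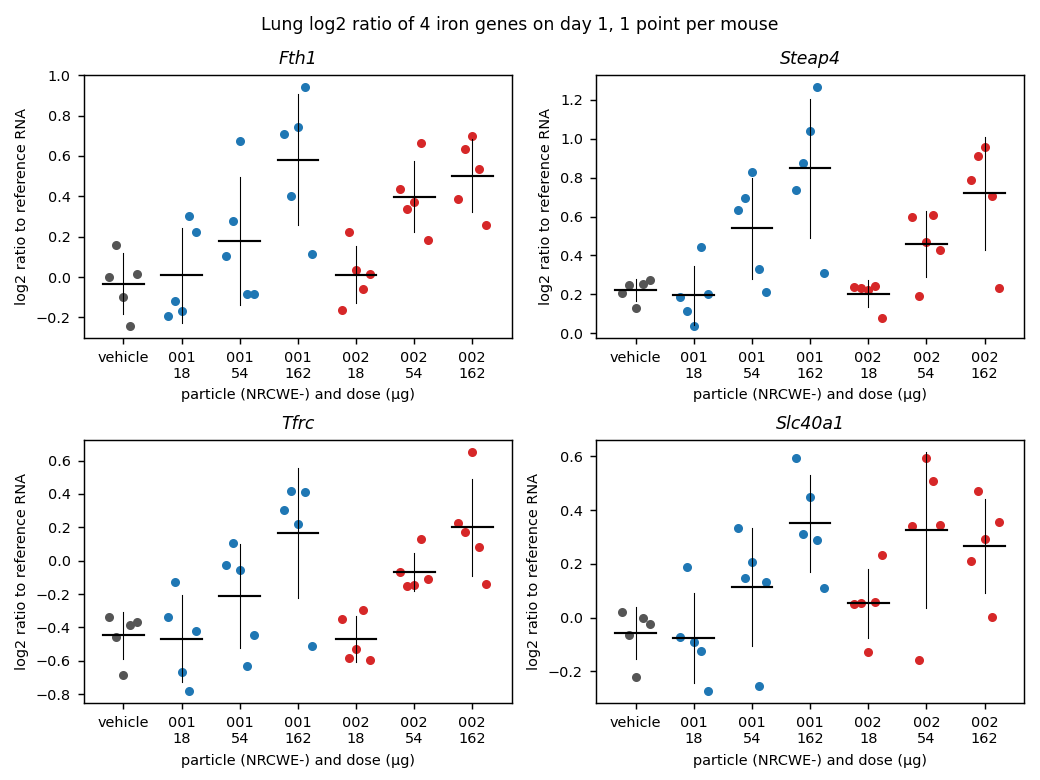
Log2 ratio to reference RNA (y axis) of Fth1, Steap4, Tfrc and Slc40a1 on day 1, 1 point per mouse, for vehicle mice and for each particle and dose in µg (x axis), with the mean as a bar and the SD as a line. Fth1, Steap4 and Tfrc are highest at 162 µg with either particle, while Slc40a1 is highest at 54 µg for NRCWE-002. At 162 µg of NRCWE-001 the lowest Tfrc mouse, at -0.51, lies apart from the next, at 0.22.

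Single mice decided these calls. At 162 µg of NRCWE-001, replicate 5 was the lowest of its group for 6 of the 8 genes. Without replicate 4, the highest for Fth1 and Steap4, neither was called: Fth1 was at 0.52 (adjusted p = 0.0802) and Steap4 at 0.52 (adjusted p = 0.107). For NRCWE-002, Fth1 lost its call without vehicle replicate 4 (0.48, adjusted p = 0.0811) or without replicate 2 (0.50), 3 (0.49) or 4 (0.53) at 162 µg. Steap4 with NRCWE-002 kept its call only when replicate 5 at 162 µg was left out, and without any other of the 9 remaining mice its change was 0.44 to 0.51 and not called. When only the compared groups were fitted, the NRCWE-001 changes kept their size and neither gene was called (adjusted p = 0.0602 for both). That setting called 0 of 8 genes and 50 of all genes for NRCWE-001. For NRCWE-002 at 162 µg it went the other way, with 4 of 8 genes and 602 of all genes called, against 2 and 104 in the fit of all groups. Background was also fitted on all spots of an array, those with an outlying local background included. The Fth1 change then turned to -0.88 for NRCWE-001 (adjusted p = 0.461) and stood at 0.54 for NRCWE-002 (adjusted p = 1.0).

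The transferrin receptor had changes as large as those of Fth1, with more spread. Tfrc was at -0.68, -0.46, -0.39, -0.37 and -0.34 in vehicle mice on day 1. At 162 µg it was at -0.51, 0.22, 0.31, 0.41 and 0.41 with NRCWE-001 and at -0.14, 0.083, 0.17, 0.22 and 0.65 with NRCWE-002. Every NRCWE-002 mouse lay above the vehicle mice, as did 4 of 5 NRCWE-001 mice, replicate 5 being the exception. The log2 change was 0.62 ± 0.19 (adjusted p = 0.16) and 0.65 ± 0.19 (adjusted p = 0.108), so it was not called. Without replicate 5 it was 0.79 for NRCWE-001 (adjusted p = 0.0139) and 0.73 for NRCWE-002 (adjusted p = 0.0484). With slide as a fixed block Tfrc was called for both, at 0.71 (adjusted p = 0.00162) and 0.79 (adjusted p = 0.00541).

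The exporter and the phagosomal transporter showed the same direction and were not called. Slc40a1 was at -0.22, -0.063, -0.024, -0.0018 and 0.020 in vehicle mice on day 1 and at 0.11, 0.29, 0.31, 0.45 and 0.59 at 162 µg of NRCWE-001, with no overlap. Its log2 change was 0.41 ± 0.15 (adjusted p = 0.339), against 0.32 ± 0.15 for NRCWE-002 (adjusted p = 0.487). Slc11a1 ran from -1.83 to -1.64 in vehicle mice and from -1.55 to -0.89 with NRCWE-001 and -1.35 to -1.22 with NRCWE-002 at 162 µg, again with no overlap. The changes were 0.51 ± 0.20 (adjusted p = 0.439) and 0.44 ± 0.20 (adjusted p = 0.484). These SEs rest on the spread within all groups, an SD of 0.32 for Slc11a1, and not on the compared mice alone. Its SD on day 1 was 0.088 in vehicle mice and 0.25 (NRCWE-001) and 0.054 (NRCWE-002) at 162 µg. On day 28 it was 0.51 and 0.74 at that dose.

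In all, 3 of 8 genes had every mouse at 162 µg of NRCWE-001 above every vehicle mouse, where 1.98% of all genes did. They were Slc40a1, Slc11a1 and Steap4. For NRCWE-002 at 162 µg it was also 3 of 8, namely Tfrc, Fth1 and Slc11a1, against 3.53% of all genes. At 54 µg of NRCWE-002 the same 3 genes were separated, against 1.69% of all genes. At 18 µg on day 1 no member was separated with either particle.

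With slide as a fixed block, 5 of 8 genes were called at 162 µg of NRCWE-001 on day 1, where 4.3% of all genes were called. These were Slc40a1 at 0.44 (adjusted p = 0.00262), Tfrc, Fth1 at 0.57, Slc11a1 at 0.55 (adjusted p = 0.0224) and Steap4 at 0.62. At 54 µg of NRCWE-002, 3 of 8 were called against 1.39% of all genes: Slc40a1 at 0.44 (adjusted p = 0.0078), Tfrc at 0.55 (adjusted p = 0.0387) and Fth1 at 0.47 (adjusted p = 0.0438). At 162 µg of NRCWE-002 the block called Tfrc and Steap4, against 1.93% of all genes, and Fth1 missed the threshold (0.49, adjusted p = 0.0524). Within the 3 slides that held both vehicle and NRCWE-001 mice at 162 µg, Fth1 differed by a mean of 0.60, with all 3 slides positive (0.24 to 0.84), and Steap4 by 0.69 (0.53 to 0.91). For NRCWE-002 there were 2 such slides, with mean differences of 0.66 for Fth1 and 0.61 for Steap4.

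The remaining 3 genes showed no call on day 1 under any dose. Ftl1, the light chain that helps iron deposit inside the ferritin shell, changed by 0.025 ± 0.22 at 162 µg of NRCWE-001 and 0.038 ± 0.22 with NRCWE-002. Its day 1 mice lay between -1.05 and -0.49 in all 35 arrays. The 95% intervals of the change were -0.42 to 0.47 and -0.40 to 0.48 by the fit. That fit shares the spread of all groups, an SD of 0.36 within groups for Ftl1. The compared groups of day 1 had lower SDs, 0.13 in vehicle mice and 0.11 (NRCWE-001) and 0.078 (NRCWE-002) at 162 µg. The intervals are thus wider than the spread of these mice, and no conclusion is drawn from them on a change of the size seen for some other members. Trf, made mainly by the liver and also in the lung, ran from 4.22 to 4.85 in vehicle mice and from 4.39 to 5.57 at 162 µg of NRCWE-001, where 4 of 5 mice lay above all vehicle mice. Its changes were 0.48 ± 0.31 and 0.36 ± 0.31. Hamp changed by 0.22 ± 0.36 and 0.30 ± 0.36.

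Hamp, also made mainly by the liver, varied within groups almost as much as over all mice. It was well above background on 37 of 69 arrays, and per group on 1 of 5 vehicle mice on day 1, 1 of 4 on day 28 and between 1 and 5 of 5 in the particle groups. In the reference channel Hamp was well above background on only 7 arrays. Its log2 ratio ran from -0.22 to 1.93 over all mice, with an SD of 0.59 within groups and 0.61 over all mice. Replicate 5 of the day 1 vehicle mice was at 1.59, while the other 4 ran from -0.14 to 0.20. Its largest mean change was 0.78 ± 0.39 at 18 µg of NRCWE-001 on day 28 (adjusted p = 0.606), where the mice were at -0.087, 0.0062, 1.50, 1.73 and 1.93. It was not called at any dose of either particle on either day.

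On day 28 limma called 0 of the 48 values (8 genes in 6 comparisons) against vehicle mice, and the slide block also called 0. Unadjusted p fell below 0.05 for 3 of the 48, where 2.91% to 8.62% of all genes did so in each comparison. At 162 µg, 0.0454% of all genes were called for NRCWE-001 and 0.00567% for NRCWE-002, while 18 µg of NRCWE-001 called 0.193% and the remaining doses 0. The F-test over doses called 0 of 8 on that day, against 0.477% of all genes with NRCWE-001 and 0 with NRCWE-002. The lowest adjusted p was that of Fth1 at 162 µg of NRCWE-001. There, the vehicle mice were at -0.023, 0.063, 0.066 and 0.13 and the exposed mice at 0.13, 0.19, 0.45, 0.50 and 0.59, a difference of 0.31 ± 0.13 (adjusted p = 0.418). All 5 exposed mice lay above the 4 vehicle mice, as in 0.709% of all genes. NRCWE-002 at 162 µg gave 0.19 ± 0.13, and Steap4 was at 0.23 ± 0.13 and 0.21 ± 0.13. Slc40a1 was lower than in all vehicle mice in 5 of 5 mice at 18 µg of NRCWE-001, by a log2 change of -0.33 ± 0.16 (adjusted p = 0.593). There the vehicle mice were at -0.022, -0.012, 0.021 and 0.11 and the exposed mice at -0.43, -0.38, -0.31, -0.22 and -0.16. Such separation downwards held for 1.74% of all genes.

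The effect of 162 µg was then compared between the days. Limma called 0 of 17628 genes in this interaction for either particle, members included, and 4 of the 16 member estimates had an unadjusted p below 0.05, where 4.35% and 6.7% of all genes did. A negative estimate means a lower change on day 28 than on day 1, and 7 of 8 were negative for NRCWE-001 and 6 of 8 for NRCWE-002. For Fth1 the estimate was -0.30 ± 0.17 for NRCWE-001 (adjusted p = 1.0) and -0.34 ± 0.17 for NRCWE-002 (adjusted p = 0.763). For Tfrc with NRCWE-002 it was -1.03 ± 0.28 (adjusted p = 0.391). The day 28 change of Tfrc that enters this estimate was -0.38, and with slide as a fixed block it was 0.036. Vehicle mice of day 28 differed from those of day 1 by -0.12 to 0.40 over the 8 genes, and none was called (lowest adjusted p = 0.844).

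**Figure D3:**
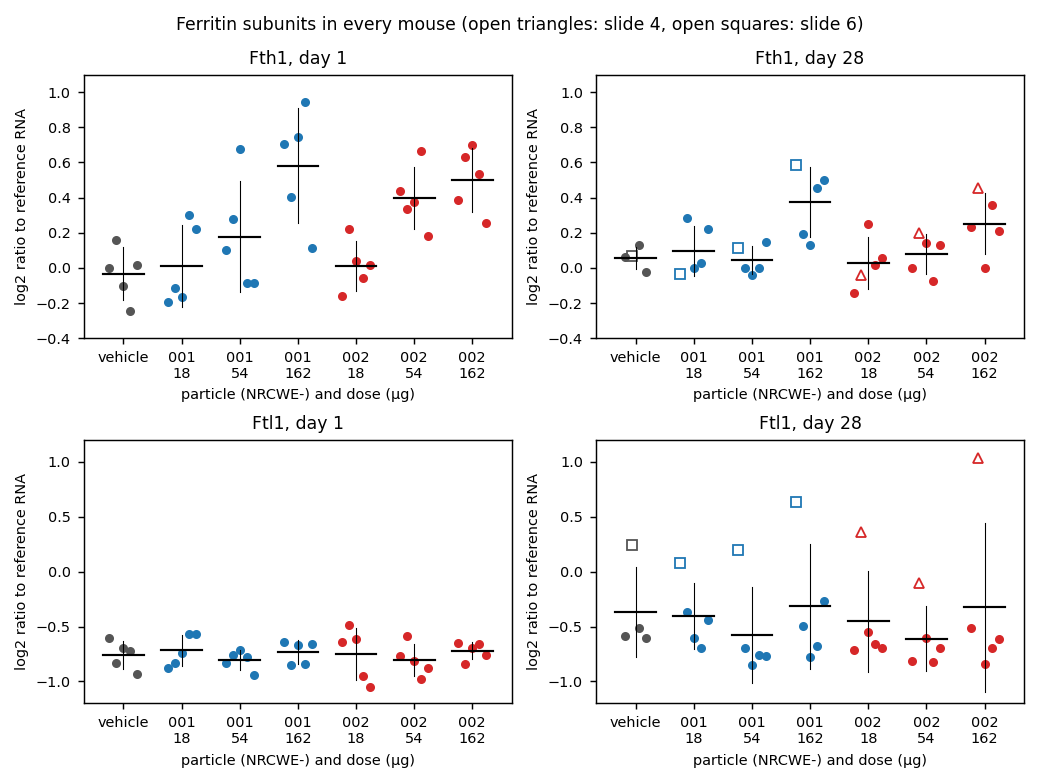
Log2 ratio to reference RNA (y axis) of the ferritin chains Fth1 (upper panels) and Ftl1 (lower panels) in every mouse on day 1 and day 28, by particle and dose in µg (x axis), with the mean as a bar and the SD as a line; open triangles and squares are the day 28 arrays of slides 4 and 6. Mean Fth1 rises with dose on day 1, and the highest Ftl1 values on day 28 are those of the 2 slides.

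On day 28 the highest Ftl1 values were those of slides 4 and 6, and neither ferritin chain was called at any dose. The 7 Ftl1 arrays of slides 4 and 6 ran from -0.10 to 1.03 with a median of 0.24, and the 27 other arrays of that day ran from -0.85 to -0.27. Slide 6 held 1 vehicle mouse and 3 NRCWE-001 mice, so its high values were not tied to 1 treatment. The 7 Fth1 values of these slides ran from -0.038 to 0.59 and overlapped the other values of that day, -0.15 to 0.50, but 3 of the 7 were the highest of their group. These included the 0.59 at 162 µg of NRCWE-001 and the 0.45 at 162 µg of NRCWE-002. Across the 14 group means Fth1 had a Pearson correlation of -0.11 with Ftl1 and 0.92 with Steap4. The sources used here do not give the cause of the Ftl1 values, and it was not tested.

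The 2 particles were compared at matched doses on each day, 6 comparisons of 8 genes each. Limma called 0 of these 48 differences, where it called between 0 and 0.13% of all genes, and the unadjusted p of 2 lay below 0.05, as it did for 1.07% to 9.09% of all genes in each comparison. At 162 µg on day 1 the difference, NRCWE-002 minus NRCWE-001, was -0.08 for Fth1 (95% interval -0.32 to 0.16), -0.13 for Steap4 (-0.38 to 0.12), 0.031 for Tfrc (-0.35 to 0.41) and -0.083 for Slc40a1 (-0.38 to 0.22). The mice of the pair overlapped for all 4 genes, and the intervals do not show that the particles act alike. On day 28 at 54 µg, Slc40a1 was higher with NRCWE-002 by 0.38 ± 0.15 (adjusted p = 0.463), where 0.034% of all genes were called. It was called only with slide as a block (0.50, adjusted p = 0.0203), which called 0.0454% of all genes.

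Averaged over the 3 doses, 1 of 8 genes was called between the particles on day 28, where 4.75% of all genes were called, and 0 of 8 on day 1, where 0.125% were. Tfrc had a mean of -0.78 in the 15 NRCWE-002 mice and -0.40 in the 15 NRCWE-001 mice, a difference of -0.38 ± 0.11 (adjusted p = 0.0337). The 3 lowest Tfrc values of that day, -1.24, -1.23 and -1.41, were the NRCWE-002 mice on slide 4, and the NRCWE-001 arrays of slide 6 held the highest, 0.37. With slide as a fixed block the difference was -0.021 (adjusted p = 0.993), and the block called 0.0227% of all genes instead of 4.75%, and without slides 4 and 6 it was -0.13 (adjusted p = 0.587). It was also lost without any 1 of 7 single arrays (-0.36 to -0.32): replicate 2 at each dose of NRCWE-002, replicate 1 at each dose of NRCWE-001 and replicate 2 at 54 µg of NRCWE-001. Within slides that held both particles it was positive, 0.19. As 2 slides held both particles on that day, particle and slide cannot be fully told apart in this contrast.

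**Figure D4:**
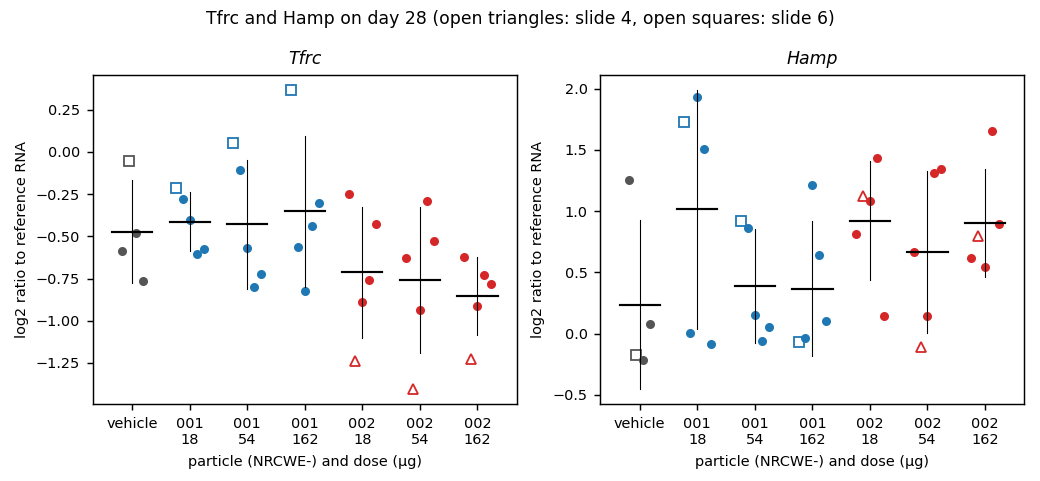
Log2 ratio to reference RNA (y axis) of Tfrc and Hamp on day 28, 1 point per mouse, by particle and dose in µg (x axis), with the mean as a bar and the SD as a line; open triangles are arrays of slide 4 and open squares those of slide 6. The 3 Tfrc triangles are the lowest values of the day, between -1.41 and -1.23, and Hamp runs from -0.087 to 1.93 within the group at 18 µg of NRCWE-001 alone.

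The rest of the iron pathway was described with 52 measured genes from a list that was also chosen with earlier results of these data known. Its counts are a description and not a test of the list. At 162 µg on day 1, 5 of 52 were called higher for NRCWE-001, where 0.425% of all genes were, and 4 of 52 for NRCWE-002, where 0.477% were. No gene of the list was called lower. The median change of the list was 0.011 and 0.046. At 54 µg of NRCWE-002, 4 of 52 were called higher, where 0.0624% of all genes were called. The called genes were Lcn2, Cp, Hpx, Slc39a14 and Hmox1. By function, 2 of 4 genes of export and extracellular binding, 2 of 14 haem genes, 1 of 12 uptake genes, 0 of 11 storage genes and 0 of 11 sensing genes were called for NRCWE-001 at 162 µg.

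Lcn2, lipocalin 2, which binds the siderophores with which bacteria collect iron, had the largest change. Its vehicle mice on day 1 lay between 0.87 and 1.28, those at 162 µg of NRCWE-001 between 0.96 and 4.79 and those of NRCWE-002 between 2.58 and 4.80. The log2 change was 2.75 ± 0.61 (adjusted p = 0.014) and 3.02 ± 0.61 (adjusted p = 0.00721). Cp, ceruloplasmin, the ferroxidase that works with the exporter, rose by 1.51 ± 0.33 and 1.53 ± 0.33. Hpx, hemopexin, which carries free haem, rose by 1.42 ± 0.28 and 1.31 ± 0.28. Slc39a14, an importer of iron not bound to transferrin, rose by 0.51 ± 0.10 and 0.52 ± 0.10. Hmox1, the haem oxygenase that frees iron from haem, rose by 0.92 ± 0.17 with NRCWE-001 and by 0.79 ± 0.17 at 54 µg of NRCWE-002 (adjusted p = 0.0478), and its 0.52 ± 0.17 at 162 µg of NRCWE-002 was not called (adjusted p = 0.195).

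**Figure D5:**
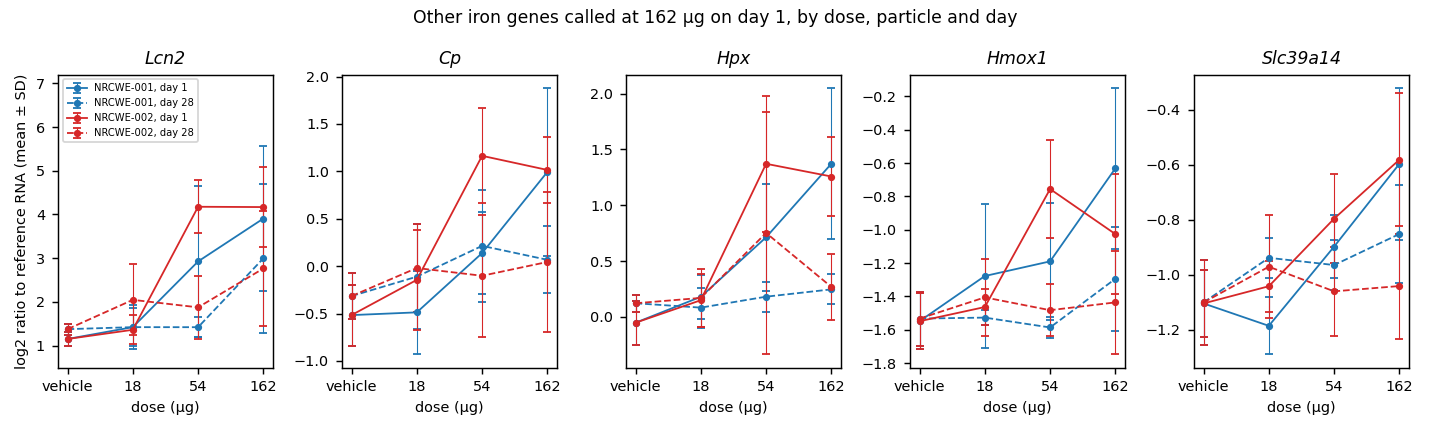
Mean log2 ratio to reference RNA (y axis, with the SD) of Lcn2, Cp, Hpx, Hmox1 and Slc39a14 by dose in µg (x axis), for NRCWE-001 in blue and NRCWE-002 in red, with solid lines for day 1 and dashed lines for day 28. On day 1 the lines end above the vehicle mice for all 5 genes, with Lcn2 reaching 3.91 and 4.17 at 162 µg.

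Genes that were not called include the near relatives of the members. Among uptake genes the uncalled changes at 162 µg ran from -0.052 to 0.32 for NRCWE-001 and from -0.099 to 0.40 for NRCWE-002, with Steap1 the highest. Uncalled storage and mitochondrial genes ran from -0.22 to 0.12 and from -0.14 to 0.16. Uncalled haem genes ran from -0.45 to 0.38 and from -0.38 to 0.52. The uncalled genes of export and extracellular binding ran more widely, from -0.21 to 1.37 and from -0.25 to 1.51. Among the sensing genes Il6, a known inducer of hepcidin, was at 1.07 ± 0.32 (adjusted p = 0.127) and 1.01 ± 0.32 (adjusted p = 0.146). On day 28 none of the 52 was called in any of 6 comparisons, and the median changes lay between -0.0029 and 0.010. With slide as a block there was 1 call over those comparisons.

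Markers of other cell types were compared at 162 µg on day 1. Of all genes, 0.562% were called there for NRCWE-001, 0.425% of them as higher, and 0.59% were called for NRCWE-002, 0.477% as higher. The median change of the 12 neutrophil markers at 162 µg was 0.61 for NRCWE-001, with 10 positive and 2 called higher (Csf3r and Cxcr2), and 0.42 for NRCWE-002, with 8 positive and 0 called. The mean log2 ratio over that list in a mouse was 1.02 to 1.46 in vehicle mice, 1.14 to 2.17 with NRCWE-001 and 1.33 to 1.81 with NRCWE-002. Elane, a further gene of that list, was above background on 7 of 69 arrays. The 8 alveolar macrophage markers had a median change of -0.50 and -0.36, with 2 called lower for NRCWE-001, Ear1 and Abcg1. The mean level of this list was 3.20 to 3.65 in vehicle mice, 2.60 to 3.22 with NRCWE-001 and 2.92 to 3.60 with NRCWE-002. The 8 cardiac muscle markers were at 0.51 and 0.63 with 0 called, and their mean level ran from 0.32 to 3.00 in vehicle mice, from 0.20 to 3.48 with NRCWE-001 and from 0.66 to 2.31 with NRCWE-002. On day 28, cardiac markers were 1.81 higher at 162 µg of NRCWE-002, with 0 of 8 called. The 7 hepatocyte markers had a median of -0.043 and 0.29, with Fabp1 called lower for NRCWE-001 (-1.74), and their mean level was 0.32 to 1.74 over the exposed mice and 0.69 to 0.90 in vehicle mice. Medians of the other lists at 162 µg on day 1 were 0.16 and 0.15 for 10 monocyte and tissue macrophage markers, -0.10 and -0.0025 for 8 red cell markers, 0.063 and 0.26 for 6 adipocyte markers, 0.19 and 0.34 for 7 proliferation genes and -0.13 and -0.099 for the 10 lung markers, with 0 called in each. The part of these cells in the changes of the 8 iron genes was not tested.

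The genes whose 14 group means ran most like those of a member are given as a description, with no test. Clmp (r = 0.97), Cxcl3 (0.97) and Itih4 (0.96) were nearest to Fth1, and Vnn3 (0.96), Cyp7b1 (0.95) and Ctps (0.95) to Steap4. Nearest to Slc40a1 were Mirt1 (0.90), Hpx (0.89) and Csf3r (0.89), and to Slc11a1 Rab20 (0.96), Ly6f (0.94) and Cxcl10 (0.93). For Tfrc they were Ufc1, Nsdhl and Eif1ax (0.96 each), for Ftl1 Fuca1 (0.96), Rpl4 (0.92) and Mob3a (0.92), for Trf Ffar4 (0.97), Arpin (0.95) and Capsl (0.92), and for Hamp Bpifa1 (0.94), Reg3g (0.93) and Mapk10 (0.93). All groups share the reference RNA, and those of Ftl1 and Tfrc share the slides described above.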

How the data were processed

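Lung RNA (Cy5) and a reference RNA (Cy3) were hybridised on 69 Agilent arrays, without dye swap, each lung sample from a separate mouse. The deposited scanner output held intensity values per spot, which the authors had read with Feature Extraction 11.0.1.1 and not normalized. The deposited value table held log2 ratios, normalized by the authors with LOWESS, repeat probes averaged. The choice of genes named that table. Scanner intensities were used instead as the main source and the table as an alternative. Its columns correlated at 0.988 to 0.995 with the ratios computed here, which settled the direction as sample over reference, and their medians were -0.059 to -0.0026.

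Background was corrected with normexp (offset 50) in limma 3.58.1 under R 4.3.3, leaving out of the fit the 0 to 470 spots per array with a local background more than 10 median absolute deviations off its median, and arrays were normalized by loess. That exclusion was chosen after the data had been examined. The offset shrinks the change of dim genes such as Steap4 and Hamp. A probe was kept if well above background on at least 4 arrays (36452 of 41174 probes). Symbols came from a RefSeq table of GRCm38.p6 by accession (27479 probes, 66.7%), while the array annotation followed mm9. Groups came from the labels, each mouse being 1 replicate. Genes were tested in 1 limma fit of 14 group means, with Benjamini-Hochberg adjustment over 17628 genes and calls at an adjusted p below 0.05. The script was tested on simulated data. The 8 genes, the iron lists and the cell markers were chosen with earlier results of these data known. All 8 genes were named throughout. Of the other iron genes, those called at 54 or 162 µg on day 1 were named, and Steap1, Il6 and the single cell markers were named after their values were seen. The alternatives were other background corrections, normalizations, sources of ratios, filters, probe summaries, blocks for slide or scan day, weights, fits and leaving out each array. Leaving out 4 arrays of low correlation, or slides 4 and 6, was chosen after seeing the data. Proteins and the mm9 genome were not used here.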

Additional observations from a re-analysis of the deposited data

Results flagged for a closer look

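Among the 112 sets of mice formed by a gene and a group, 14 had a highest or lowest mouse whose gap to the next exceeded the 95% limit of Dixon's test, where chance gives about 5.6. The values below are log2 ratios, each followed by that of the nearest mouse of its group.

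Ftl1 was high in 4 mice of day 28, all on slides 4 and 6: 1.03 against -0.51 at 162 µg of NRCWE-002, 0.36 against -0.55 at 18 µg of NRCWE-002, 0.20 against -0.70 at 54 µg of NRCWE-001, and 0.24 against -0.52 in a vehicle mouse. Slide 4 also held the low Slc40a1 value at 162 µg of NRCWE-002, -0.82 against 0.034, and the high Slc11a1 value at 54 µg of NRCWE-002, -1.05 against -1.59. On day 1 Slc11a1 was high in replicate 1 at 54 µg of NRCWE-002, -1.11 against -1.42.

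Tfrc was low in replicate 5 at 162 µg of NRCWE-001 on day 1, -0.51 against 0.22, and that mouse was the lowest of its group for 6 of the 8 genes. Hamp was high in replicate 5 of the vehicle mice of day 1, 1.59 against 0.20, and in replicate 5 at 18 µg of NRCWE-002 on day 1, 0.42 against -0.017. In that NRCWE-002 mouse Steap4 was low, 0.081 against 0.22. Trf was low at 54 µg of NRCWE-001 on day 1, 3.82 against 4.73, and at 162 µg of NRCWE-001 on day 28, 3.01 against 4.64, and high in vehicle replicate 1 of day 28, 5.45 against 4.93.

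The difference of Tfrc between the particles on day 28, averaged over doses, was -0.38 and passed the test of that difference, which was lost with slide as a block as described above.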

How the results depend on the processing

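No paired analysis was possible because replicate numbers followed the order of accessions and pair no mice; slide took the place of a block. Numbers of the 8 genes called are given in the order 162 µg against vehicle on day 1, NRCWE-001 then NRCWE-002 (2 and 2 as reported), the F-test on day 1, NRCWE-001 then NRCWE-002 (2 and 2), and the day 28 difference of particles over doses (1). They were 0, 0, 0, 0 and 0 with normexp fitted on all spots, 1, 0, 1, 1 and 3 with median centring, 1, 0, 0, 1 and 1 with processed signals, 5, 4, 4, 4 and 0 with scan day as a block, and 0, 4, 2, 4 and 0 with the compared groups alone. The same fits called, of all genes and in the same order, 108, 34, 82, 59 and 256 with normexp on all spots, 37, 40, 37, 97 and 4518 with median centring, 66, 70, 70, 101 and 531 with processed signals, 753, 779, 1155, 717 and 5 with scan day, and 50, 602, 325, 613 and 24 with the compared groups alone, against 99, 104, 121, 144 and 837 as reported. Slide as a fixed or random block gave 5 and 4 for NRCWE-001 at 162 µg and in its F-test, and 0 between particles. Of all genes, these comparisons called 758, 1303 and 4 with the fixed block and 584, 1007 and 19 with the random one. Array weights gave 5 in each of the first 4, 1 and 2 at 54 µg on day 1, and 1 each at 162 µg and in the F-test of NRCWE-001 on day 28. Those fits called 1094, 1277, 2022 and 1514 of all genes in the first 4, 659 and 170 at 54 µg, and 1175 and 1873 on day 28. At 54 µg of NRCWE-002 on day 1, where 0 were called, a fixed slide block gave 3, a random one 2 and scan day 1. Those blocks called 245, 197 and 136 of all genes there. At 54 µg between particles on day 28 a fixed slide block gave 1, with 8 of all genes called. Sample channel alone gave 0 on day 28 between particles, where 184 of all genes were called. Probes taken singly gave 1 for both 162 µg contrasts and the NRCWE-002 F-test, a stricter filter on dim probes gave 1 for NRCWE-002 at 162 µg and in its F-test, and no moderation 1 in that F-test. In the same order, single probes called 104, 125 and 163 of all probes. The stricter filter called 109 and 159 of all genes, and no moderation 119. Without slides 4 and 6, chosen after seeing the data, 4 were called at 162 µg of NRCWE-001 and 0 between particles on day 28. Those comparisons called 314 and 75 of all genes.

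Leaving out each mouse gave 0 to 3 calls at 162 µg with either particle, 1 to 3 (NRCWE-001) and 1 to 2 (NRCWE-002) in the F-tests and 0 to 1 between particles. Fits with 0 members called at 162 µg called 14 (NRCWE-001) and 24 to 41 (NRCWE-002) of all genes. Fits with 1 in the F-tests called 37 (NRCWE-001) and 52 to 118 (NRCWE-002) of all genes. Fits with 0 between particles called 344 to 818. Over all genes, the slide block moved calls from 99 to 758 and from 104 to 341 at 162 µg on day 1, from 11 to 245 at 54 µg of NRCWE-002 and from 837 to 4 between particles on day 28.

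Changes of sign were as follows, within-slide means with no test included, and their causes were not tested. Normexp on all spots, at 162 µg of NRCWE-001 on day 1, gave Fth1 -0.88, Ftl1 -0.059, Trf -0.55 and Hamp -0.12. On day 28 at 162 µg, median centring gave Slc40a1 0.071 (NRCWE-001), Fth1 -0.093 and Ftl1 -0.21 (NRCWE-002). Ftl1 was -2.53e-05 and -0.0014 for NRCWE-002 on days 1 and 28 in the deposited ratios, and -0.058 (NRCWE-001), -0.024 and -0.019 (NRCWE-002, days 1 and 28) in the sample channel. For NRCWE-002 on day 28, Tfrc was 0.036 with slide and 0.00354 with scan day as a block, Slc40a1 0.080 and Ftl1 -0.12 with array weights, Slc40a1 0.11 and Ftl1 -0.30 without 4 arrays, and 0.094 and -0.096 without 2 slides. Trf was 0.039 for NRCWE-001 with scan day. Within slides that held both groups, Tfrc between particles was 0.19. Against vehicle at 162 µg, Ftl1 for NRCWE-001 (-0.0092) and Hamp for NRCWE-002 (-0.068) turned on day 1, and on day 28 Trf for NRCWE-001 (0.20) and, for NRCWE-002, Slc40a1 (0.18), Ftl1 (-0.080), Slc11a1 (-0.052) and Hamp (-0.083). Leaving out 1 mouse, Ftl1 on day 1 ran from -0.020 to 0.064 (NRCWE-001) and -0.0060 to 0.078 (NRCWE-002), and Hamp from -0.066 to 0.53 (NRCWE-001). On day 28 the ranges for NRCWE-001 were -0.14 to 0.028 (Slc40a1), -0.059 to 0.26 (Tfrc), -0.19 to 0.25 (Ftl1) and -0.079 to 0.47 (Hamp), and for NRCWE-002 -0.16 to 0.11 (Slc40a1), -0.30 to 0.24 (Ftl1) and -0.24 to 0.0056 (Trf). Of 689 single values from the alternatives with a test, 607 kept direction and side of the threshold, 61 changed side and 21 changed direction. Of 38 within-slide means, 8 had the other direction. Signal over background limits Steap4 and Hamp most.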
